A study of Mus musculus with 4 samples.

Results

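A set of 10 transcription factors that direct the development of conventional dendritic cells was followed in dendritic cells sorted from mouse spleen, in 2 KO and 2 WT libraries. The factors were Zbtb46, Irf4, Irf8, Batf3, Id2, Spi1, Bcl6, Nfil3, Ikzf1 and Zeb2, chosen by symbol from their known roles, and all 10 were found among the 17300 genes of the table. The labels give a KO and a WT genotype, and neither an age, a sex nor a treatment. The series title concerns Siglec-E, an inhibitory receptor for sialic acid on myeloid cells, and transplant rejection. The titles call the KO samples EKO, which the labels do not spell out, no Cre or promoter was given, and the word Allo that opens every column name is left unexplained by the labels. Separate animals are not stated within a group, so p-values reflect sample-to-sample spread alone, which in WT may be technical. The libraries are called KO A, KO B, WT 1 and WT 2, and pairs of values are given in that order within a group.

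Dendritic cells take up antigen and present it to T cells. Conventional dendritic cells fall into DC1, which are specialized for cross-presentation to CD8 T cells, and DC2, which mainly prime CD4 T cells, while plasmacytoid dendritic cells make type I interferon. In mice, PU.1 (Spi1) and Ikaros (Ikzf1) act early and broadly, Zbtb46 marks the committed conventional lineage, and the pair IRF8 and BATF3 maintains DC1. Nfil3, Zeb2 and Id2 form a circuit in dendritic cell precursors, in which NFIL3 represses Zeb2, ZEB2 represses Id2, and ID2 blocks E proteins, the factors that drive the plasmacytoid fate. IRF4 serves DC2, and BCL6 is a repressor needed by conventional dendritic cells.

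The libraries held between 29002408 and 30952251 normalised counts after the deposited log2 values were transformed back. These totals follow scaling between libraries and are not the depth in reads. Siglece itself was at 8.92 and 8.96 in the KO libraries, against 10.38 and 10.14 in the WT libraries. KO A stood apart in Y-linked RNA, with Ddx3y at 8.74 there, at 12.13 in the other KO library and at 11.82 and 11.97 in the WT libraries. The KO libraries were thus not repeats of one RNA sample. The part of this in the results was not tested. Markers of conventional dendritic cells ranged from Ccr7 (between 10.70 and 11.23) to Cd74 (between 17.46 and 17.86). Neutrophil RNA was also high, S100a9 being at 16.16 and 16.03 in the KO libraries, against 15.87 and 14.38 in the WT libraries. T cell genes ranged widely, Cd3e being between 8.63 and 8.68 and Thy1 between 11.93 and 12.45, the lowest value of the table being 8.04. No gene of the 12 marker lists for dendritic cell subsets and other spleen cells, where the table held it, sat at that lowest value in any library.

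Of the 10 factors, 4 differed between KO and WT, Zbtb46 and Batf3 being lower and Nfil3 and Ikzf1 higher in KO. Thus 4 of 10 passed an adjusted p of 0.05, against 6.93% of the 11864 genes tested, in limma with Benjamini-Hochberg adjustment over all of them. The factors were chosen by role but with earlier results of these data known, so these shares are not a test of the set. In the 2 directions the background was 4.69% higher and 2.23% lower. The libraries of KO and WT did not overlap for 7 of the 10 factors, a share of 70.0%, against 56.2% of all tested genes. KO lay above WT for 4 of them (28.1% of all genes) and below WT for 3 (28.2%). The median difference of the factors was 0.03, against 0 over all tested genes. All 10 passed the filter on low values, a mean of 9.04 on the log2 scale, in each group taken alone. Without KO A or without KO B, 0 factors passed the threshold in limma (6 and 7 had an unadjusted p under 0.05, against 7 with all libraries); without WT 2 only Zbtb46 and Nfil3 did.

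**Figure D1:**
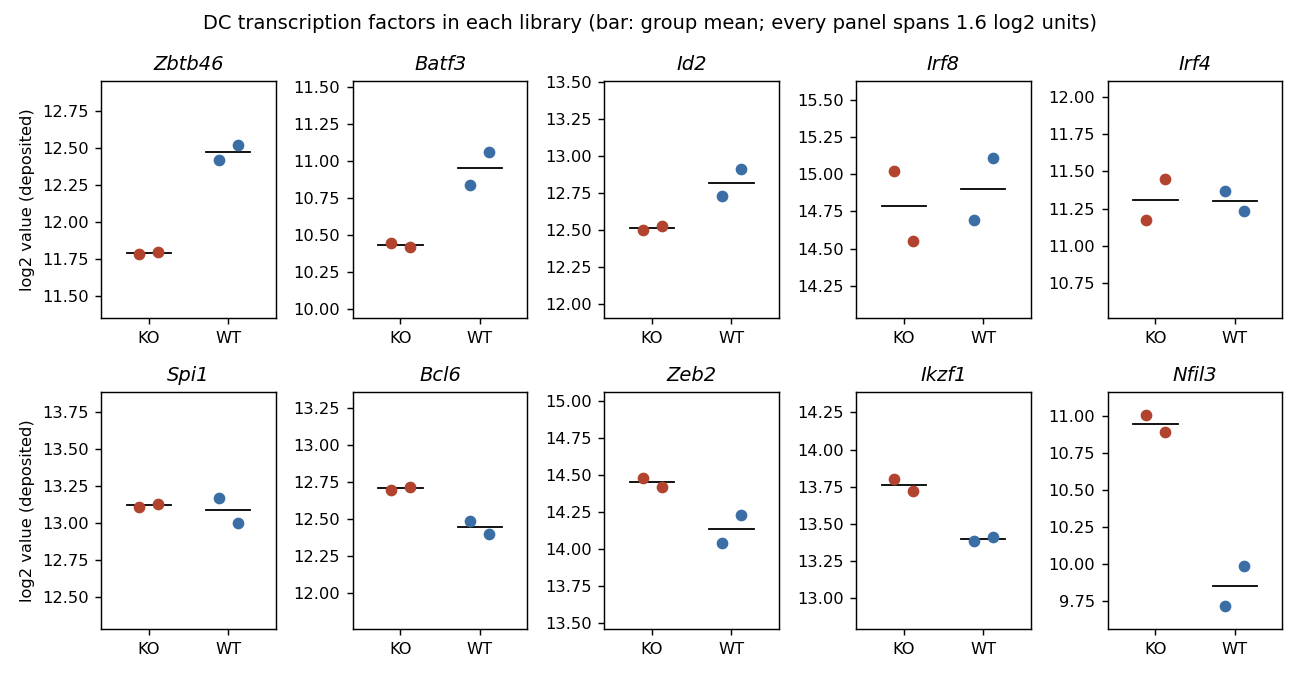
Deposited log2 value of each factor in 2 KO (left) and 2 WT (right) libraries, ordered by difference. Points are libraries and bars are group means, and every panel spans 1.6 log2 units. Both KO libraries lie below both WT libraries for Zbtb46, Batf3 and Id2 and above them for Bcl6, Zeb2, Ikzf1 and Nfil3.

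**Figure D2:**
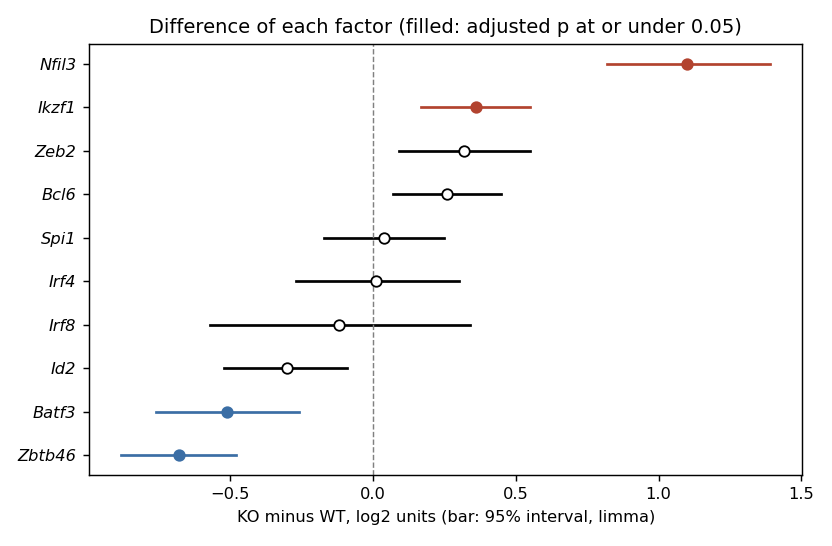
Difference KO minus WT of each factor on the log2 scale, with its 95% interval from limma. Filled points passed an adjusted p of 0.05. Nfil3 lies at 1.10 and Zbtb46 at -0.68, while the intervals of Spi1, Irf4 and Irf8 include 0.

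Windows at the annotated starts of the 3 factors with the largest differences are shown to set their base composition and factor motifs beside those differences. Each is the RefSeq window of 300 bases, 250 before to 50 after the annotated start, in build GRCm38.p6 and read 5′ to 3′ on the gene's strand. The submitters' processing notes name build GRCm39, and no coordinate comes from the deposited values. Capitals mark letters that match 1 of 7 motifs on either strand.
Zbtb46, chr2:181424339-181424638, minus strand: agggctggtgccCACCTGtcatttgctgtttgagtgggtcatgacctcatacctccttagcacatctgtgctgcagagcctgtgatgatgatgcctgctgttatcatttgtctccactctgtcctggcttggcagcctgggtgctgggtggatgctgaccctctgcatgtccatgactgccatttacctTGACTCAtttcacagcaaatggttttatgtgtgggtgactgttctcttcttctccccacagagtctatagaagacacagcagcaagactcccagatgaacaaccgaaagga
Batf3, chr1:191098164-191098463, plus strand: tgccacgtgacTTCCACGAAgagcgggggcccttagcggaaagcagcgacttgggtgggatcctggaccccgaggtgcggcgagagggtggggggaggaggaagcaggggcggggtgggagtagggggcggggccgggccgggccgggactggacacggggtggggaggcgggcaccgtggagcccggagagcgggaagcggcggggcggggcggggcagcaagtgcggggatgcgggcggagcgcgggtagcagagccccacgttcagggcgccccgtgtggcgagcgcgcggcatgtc
Nfil3, chr13:52980990-52981289, minus strand: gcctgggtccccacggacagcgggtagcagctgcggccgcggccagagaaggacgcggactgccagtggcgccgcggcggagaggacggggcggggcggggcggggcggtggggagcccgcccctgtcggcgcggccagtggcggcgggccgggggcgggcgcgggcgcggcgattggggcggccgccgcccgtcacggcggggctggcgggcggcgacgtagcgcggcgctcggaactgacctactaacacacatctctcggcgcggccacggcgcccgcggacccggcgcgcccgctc

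The Zbtb46 window held 1 CpG and 50.7% G and C. Batf3 held 34 CpG and 75.7% G and C, and Nfil3 held 54 CpG and 81.7% G and C, against medians of 7 CpG and 52.7% over 32851 windows. The windows of the 2 factors that fell were thus of unlike composition. In Zbtb46, the letters just before the annotated start are a run of c and t ending in acag, as at the end of an intron. That window may therefore not be a promoter, and its values describe the annotated start only. The motifs searched were the PU.1 core AGGAAGT, the interferon-stimulated response element GAAANNGAA, the ETS-IRF composite GGAANNGAA, the AP-1 site TGANTCA, the E-box CAGGTG read by ZEB and E proteins, the NFIL3 D-box TTANNTAA and the BCL6 motif TTCNNNGAA. The response element and the composite share their GAA end and can overlap. In the capitals above, Zbtb46 has an AP-1 match (7.81% of all windows have one) and an E-box match (20.2%), Batf3 has a BCL6 match (8.30%), and Nfil3 has no match. The other motifs stood in 9.35% (PU.1 core), 8.56% (response element), 8.24% (composite) and 6.0% (D-box) of all windows, and among the 3 windows printed in none. Windows were found for 9 of the 10 genes (15 windows, some of them overlapping). Letters of the BCL6 motif stood in windows of 5 of these 9 genes, Batf3, Zeb2, Irf8, Ikzf1 and Bcl6, against 9.55% of all genes with a window. AP-1 and the E-box stood in 2 of 9 each (8.97% and 22.6% of all genes), and the composite in 1 (9.42%). The PU.1 core, the response element and the D-box stood in 0 of 9. The 9 genes held 15 windows, against 32851 for 27025 genes. A gene with more windows can match more often, so these shares are not like for like. A match is a description of letters and not a bound site.

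Zbtb46 (ENSMUSG00000027583), a BTB zinc finger factor that marks conventional dendritic cells and their precursors, was at 11.78 and 11.80 in the KO libraries, against 12.42 and 12.52 in the WT libraries. The KO values differed by 0.02 and lay well below both WT values. It fell by 0.68 on the log2 scale (SE 0.0819, 95% interval -0.88 to -0.48, adjusted p = 0.0155). In normalised counts it averaged 3036 in KO and 5164 in WT, a ratio of 0.588. Markers of conventional dendritic cells moved with it: 6 of 8 fell, 0 rose, and their summed count was 328255 and 306372 in KO, against 432211 and 437894 in WT, a ratio of 0.729. Most of each sum was Cd74, which did not pass, with 193842 and 179481 in KO, against 233470 and 237744 in WT. H2-Ab1 was most of the remainder, so the ratio was mainly that of these genes. In bulk RNA, fewer conventional dendritic cells and less Zbtb46 RNA per cell cannot be told apart. The 2 tested genes most like Zbtb46, by the Euclidean distance of 4 library values each centred on its own mean, were Tlr11, an innate receptor of DC1 (distance 0.0260), and Neurl1b (distance 0.0278).

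Spi1 and Ikzf1 act across blood cell lineages. Spi1 (ENSMUSG00000002111), the ETS factor PU.1 that opens myeloid and dendritic cell genes, was at 13.11 and 13.13 in the KO libraries, against 13.17 and 13.00 in the WT libraries. Its KO values lay between the WT values. The difference was 0.04 (SE 0.0886, 95% interval -0.17 to 0.25, adjusted p = 0.830), and it was -0.04 without WT 2. Ikzf1 (ENSMUSG00000018654), the zinc finger factor Ikaros of lymphoid and dendritic cell development, was at 13.80 and 13.72 in the KO libraries, against 13.38 and 13.41 in the WT libraries. It rose by 0.36 (SE 0.0790, 95% interval 0.17 to 0.55, adjusted p = 0.0482), a count ratio of 1.30. This value stood close to the threshold: it missed it with quantile normalization (adjusted p = 0.0579) and in 3 of the other 4 alternatives that kept all libraries. Ikaros is also known to act in NK cells and T cells, and NK cell markers and part of the T cell markers moved with Ikzf1. All 8 NK cell markers rose, with a summed count of 12120 and 14617 in KO and of 5445 and 5148 in WT. Of 8 T cell markers listed, 4 were tested and 3 rose, while Cd3d did not pass (adjusted p = 0.221). Among those not tested, Cd3e was flat (mean count 48.2 in KO and 52.0 in WT), and Cd3g and Bcl11b had higher mean counts in KO. Of 8 B cell markers, another lymphoid list, 0 passed, and the ratio of their summed counts, KO over WT, was 1.02. Lists outside the lymphoid cells, such as the monocyte and red pulp macrophage markers given below, also had higher summed counts in KO. The part of any of these cells in the Ikzf1 result was not tested. The genes most like Ikzf1 were S100a10 (distance 0.0116) and Frat2 (distance 0.0134).

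Among the factors of DC1, Batf3 fell and Irf8 did not pass. Batf3 (ENSMUSG00000026630), the AP-1 factor that keeps Irf8 expressed in DC1, was at 10.45 and 10.42 in the KO libraries, against 10.84 and 11.06 in the WT libraries. The KO libraries agreed closely and the WT libraries differed from each other by more than the KO libraries did. It fell by 0.51 (SE 0.104, 95% interval -0.76 to -0.26, adjusted p = 0.0405), and its mean count was 907 in KO and 1488 in WT, a ratio of 0.609. Without WT 2 the difference was -0.40 (adjusted p = 0.116). The summed count of 10 DC1 markers was 84732 and 80144 in KO, against 112790 and 139477 in WT, a ratio of 0.654, with 3 lower, 0 higher and 7 not past the threshold. Most of each sum was Wdfy4, with 48993 and 47636 in KO and 73186 and 84475 in WT. The genes most like Batf3 were Fgd2 (distance 0.0396) and P2ry6 (distance 0.0430).

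Irf8 (ENSMUSG00000041515), which specifies DC1 and supports plasmacytoid cells and monocytes, was at 15.02 and 14.55 in the KO libraries, against 14.69 and 15.11 in the WT libraries. The libraries interleaved, and each group spread over more than 0.4 log2 units. The difference was -0.12 (SE 0.190, 95% interval -0.57 to 0.34, adjusted p = 0.757). Its sign turned without KO B (0.12) and without WT 2 (0.09). The spread within KO was shared by plasmacytoid markers: the sum of 10 such genes was 45293 and 24674 in the KO libraries, against 24018 and 30674 in the WT libraries, and 0 of 10 passed (0 with an unadjusted p under 0.05). Siglech, a surface receptor of plasmacytoid cells, was at 13.44 and 12.39 in the KO libraries, against 12.40 and 12.70 in the WT libraries. Within WT, Irf8 was higher in WT 2, as were the plasmacytoid sum and the DC1 sum (112790 in WT 1 and 139477 in WT 2). The part of plasmacytoid or DC1 RNA in the Irf8 values was not tested. A further annotated gene, Gm20388, overlaps Irf8 on the same strand, so the counting could have split reads between them. Gm20388 was at 9.45 and 9.60 in the KO libraries and at 9.03 and 9.21 in the WT libraries, far below Irf8.

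Id2, Nfil3 and Zeb2, the members of the precursor circuit, had differences of unlike sign. Id2 (ENSMUSG00000020644), an inhibitor of E proteins needed by DC1, was at 12.50 and 12.53 in the KO libraries, against 12.73 and 12.91 in the WT libraries. The groups did not overlap, and the difference of -0.30 did not pass over all genes (SE 0.0898, 95% interval -0.52 to -0.09, adjusted p = 0.0988). Nfil3 (ENSMUSG00000056749), a bZIP repressor needed for DC1 and for NK cell development, was at 11.01 and 10.89 in the KO libraries, against 9.72 and 9.99 in the WT libraries. Both KO libraries stood far above both WT libraries. It rose by 1.10 (SE 0.119, 95% interval 0.82 to 1.39, adjusted p = 0.0147), the largest difference among the 10 factors. Its mean count was 1496 in KO and 478 in WT, a ratio of 3.13, so the compressed log2 scale understated it.

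Zeb2 (ENSMUSG00000026872), a zinc finger repressor that supports plasmacytoid cells, DC2 and monocytes, was at 14.48 and 14.42 in the KO libraries, against 14.04 and 14.23 in the WT libraries. The difference of 0.32 did not pass (SE 0.0954, 95% interval 0.09 to 0.55, adjusted p = 0.104), although the groups did not overlap. Genes of the opposite strand overlap Zeb2, Ikzf1 and Bcl6 in the annotation, and whether the counting used strand was not stated, so their reads could be mixed. Of these genes the deposited values held only Gm37419, which overlaps Bcl6 and lay between 8.34 and 8.49, near the lowest value. Within each library, the ratio of Id2 to Zeb2 counts was 0.236 and 0.251 in the KO libraries, against 0.386 and 0.382 in the WT libraries. The ratio of Nfil3 to Zeb2 counts was 0.0706 and 0.0659 in the KO libraries, against 0.0244 and 0.0298 in the WT libraries. Both ratios kept KO and WT apart, in opposite directions; the pairs were chosen after the values were seen, and no test was made.

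Beside Nfil3, Junb and Jund, subunits of AP-1, were higher, and the NK cell markers given above were higher. Jun did not pass (difference 2.39, adjusted p = 0.0803). It was at 14.67 and 14.59 in the KO libraries, against 11.07 and 13.40 in the WT libraries, which lay far apart. The genes most like Nfil3, picked for that likeness, were Plaur (distance 0.0778), the urokinase receptor, and Kdm6b (distance 0.108), a histone demethylase induced in activated myeloid cells. Plaur was at 12.16 and 12.15 in the KO libraries, against 10.93 and 11.20 in the WT libraries. Nfil3 is expressed by NK cells and monocytes too, and the part of those cells in its difference was not tested.

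Bcl6 (ENSMUSG00000022508), a BTB zinc finger repressor also known from germinal centre B cells, was at 12.70 and 12.72 in the KO libraries, against 12.49 and 12.40 in the WT libraries. The groups did not overlap, and the difference of 0.26 did not pass (SE 0.0795, 95% interval 0.07 to 0.45, adjusted p = 0.105). Of 8 B cell markers 0 passed (0 with an unadjusted p under 0.05), and their sum was 2067 and 3712 in KO, against 3872 and 1794 in WT. Irf4 (ENSMUSG00000021356), the factor of DC2 and of dendritic cell migration, was at 11.17 and 11.45 in the KO libraries, against 11.37 and 11.23 in the WT libraries. Its groups overlapped fully, with a difference of 0.01 (SE 0.119, 95% interval -0.27 to 0.30, adjusted p = 0.963) that turned to -0.03 with quantile normalization. The ratio of Irf8 to Irf4 counts was 18.1 and 10.2 in the KO libraries, against 12.1 and 18.3 in the WT libraries, so the libraries did not separate by genotype. Of 10 DC2 markers 4 fell, 0 rose and 6 did not pass, with a median difference of -0.22. The ratio of their summed counts, KO over WT, was 0.951. Itgam, the largest of them in KO, went the other way without passing (difference 0.53, adjusted p = 0.152). Its count was 14827 and 17612 in KO, against 13624 and 8917 in WT.

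Per kilobase of annotated exon, Irf8 stood highest of the 10 factors, with normalised counts per kb between 6824 and 10108 over the 4 libraries. Spi1 followed at 3768 to 4264, and its range met neither neighbour. Id2, Ikzf1, Zeb2, Bcl6 and Batf3 came next, from a mean of 2473 per kb for Id2 to 1495 for Batf3. Each of them but Batf3 overlapped the range of the next in order. Zbtb46 (466 to 831), Nfil3 (196 to 778) and Irf4 (379 to 483) were lowest and also overlapped in that order. Nfil3 stood above Zbtb46 per kb in both KO libraries and below it in both WT libraries, with 778 and 698 for Nfil3 against 466 and 474 for Zbtb46 in the KO libraries, and 196 and 276 against 768 and 831 in the WT libraries.

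**Figure D3:**
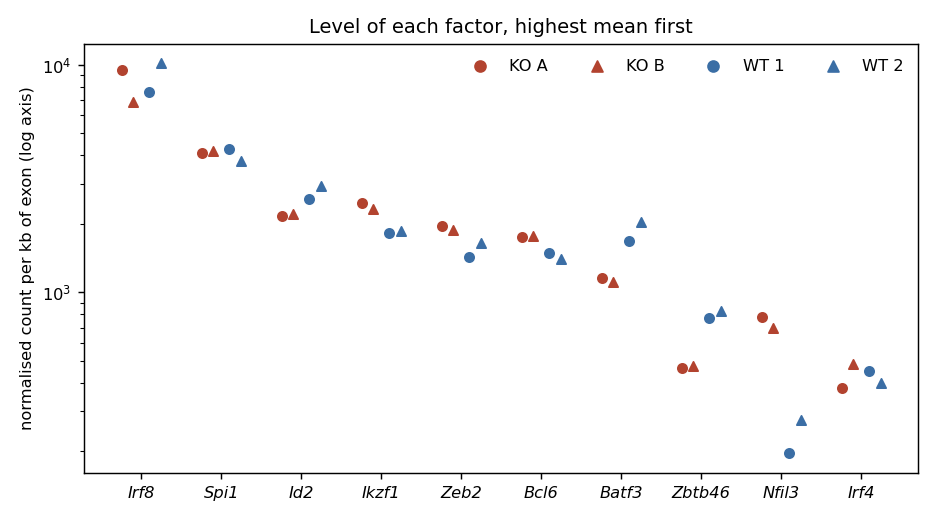
Normalised count per kb of exon for each factor in each library, on a log axis, in order of the mean over libraries. Irf8 is highest in every library, and Nfil3 lies above Zbtb46 in the KO libraries and below it in the WT libraries.

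Of 51 tested genes on the lists of family relatives, each counted once, 8 rose and 0 fell, which is 15.7%, against 6.93% of all tested genes called. The lists were chosen with earlier results known. In the lists that follow, 16 related genes past the threshold are named, of which 0 passed in limma without KO A and 0 without KO B, as for the factors themselves. Of 6 other interferon regulatory factors tested 0 passed (1 with an unadjusted p under 0.05), with a median difference of 0.05; Irf7 was at 12.29 in KO A and within 11.67 to 11.89 elsewhere. Of 14 ETS family relatives of Spi1, 2 rose, 0 fell and 12 did not pass, with a median of 0.07. Ets2 was at 10.95 and 11.15 in the KO libraries, against 9.16 and 9.67 in the WT libraries, a rise by 1.64 (SE 0.174, adjusted p = 0.0147). Ets1, a lymphocyte factor of T and NK cells, rose by 0.77 (adjusted p = 0.0182). Spib, the ETS factor of plasmacytoid and B cells, differed by -0.01 (adjusted p = 0.991).

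Batf, a relative that can stand in for Batf3 in mice, was at 9.90 and 9.59 in the KO libraries, against 9.69 and 9.93 in the WT libraries (difference -0.06, 95% interval -0.39 to 0.27, adjusted p = 0.833). Its list with the JUN partners had 2 of 4 tested genes higher and 0 lower, Junb by 1.30 (adjusted p = 0.0182) and Jund by 1.40 (adjusted p = 0.0316). Of 4 tested E proteins and ID proteins other than Id2, 0 passed (1 with an unadjusted p under 0.05). Id3 was at 9.34 and 9.25 in the KO libraries, against 8.73 and 8.99 in the WT libraries (difference 0.44, adjusted p = 0.0658), the opposite sign to Id2. Tcf4, the E protein of plasmacytoid cells, was at 13.80 in KO A and within 13.02 to 13.38 elsewhere (adjusted p = 0.682).

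In the Ikaros family 1 of 3 tested relatives rose, Ikzf3, known from lymphocytes, by 0.73 (SE 0.117, adjusted p = 0.0253). Among 7 bZIP relatives of Nfil3 tested, 1 rose and 0 fell. This was Cebpb, a factor of monocytes and macrophages, at 12.68 and 12.66 in the KO libraries, against 11.31 and 11.62 in the WT libraries (difference 1.21, adjusted p = 0.0147). Among 13 ZEB and BTB zinc finger relatives, 2 rose and 0 fell. Zbtb16, the factor PLZF of innate-like lymphocytes, rose by 0.59 (adjusted p = 0.0227) and Zbtb10 rose by 0.74 (adjusted p = 0.0191). Zeb1, the paralogue of Zeb2, differed by -0.21 (adjusted p = 0.302). The co-repressors that BCL6, ZEB2 and Ikaros recruit had 0 of 17 past the threshold (0 with an unadjusted p under 0.05), with a median of 0.02.

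Of 29 other transcription regulators of dendritic cell development, 4 rose, 2 fell and 23 did not pass, with a median of 0.11. Spib, Etv6 and Tcf4, 3 of those that did not pass, are also on the family lists. Relb, an NF-kB subunit needed by splenic DC2 in mice, was at 11.67 and 11.86 in the KO libraries, against 12.44 and 12.50 in the WT libraries, a fall by 0.71 (SE 0.0939, adjusted p = 0.0191). Zfp366, which encodes the dendritic cell factor DC-SCRIPT, fell by 0.59 (adjusted p = 0.0314), and by 0.46 without WT 2 (adjusted p = 0.0539). Klf4, a factor of DC2 and monocytes that also responds to stimulation, rose by 1.19 (adjusted p = 0.0138), and Nr4a3, of migrating dendritic cells and of the same early response, rose by 1.30 (adjusted p = 0.0206).

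Upstream of the factors, 3 of 15 cytokine receptors fell and 2 rose. Flt3, whose ligand drives dendritic cell development, was at 13.00 and 12.96 in the KO libraries, against 13.68 and 13.74 in the WT libraries. It fell by 0.73 (SE 0.0779, adjusted p = 0.0147), a size close to that of Zbtb46, and Il6st fell by 1.07 (adjusted p = 0.0147). Flt3 is also among the conventional dendritic cell markers that fell, given above with Zbtb46. Csf1r, the receptor of monocytes and macrophages, rose by 0.54 (adjusted p = 0.0216), and Csf3r, of neutrophils, rose by 1.18 (adjusted p = 0.0440; 0.0624 with quantile normalization). The monocyte list holds Csf1r, and of its 8 other markers 3 rose, among them Cebpb given above, and 0 fell. Of 9 red pulp macrophage markers 4 rose and 0 fell. The summed counts were 66620 and 64162 for monocyte markers without Csf1r in KO, against 41917 and 40263 in WT, and 10576 and 15073 for macrophages in KO, against 7462 and 6411 in WT. Of the remaining lists, 3 of 7 plasma cell and 4 of 9 erythroid markers rose and 0 fell, and of 9 neutrophil markers Csf3r, given above, was the 1 that rose, with 0 lower. The erythroid sum was 40252 and 59704 in KO, against 2892 and 16939 in WT. For neutrophil markers it was 186786 and 181738 in KO, against 159406 and 61310 in WT, so the WT libraries differed widely. The part of all these cells in the results was not tested.

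**Figure D4:**
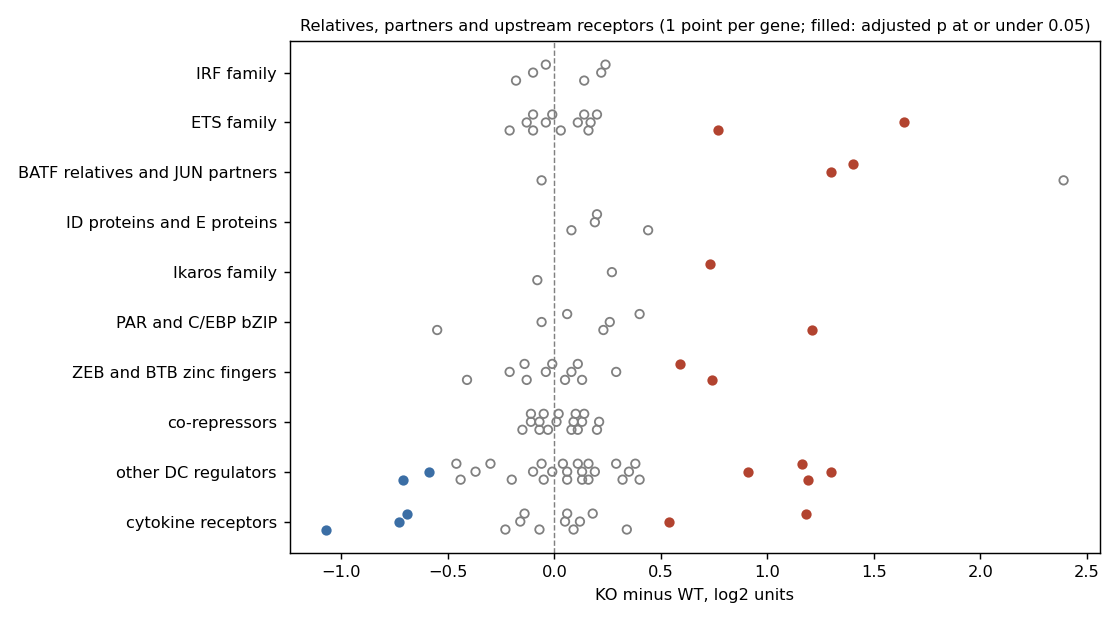
Difference KO minus WT on the log2 scale for genes related to the factors, 1 point per gene and 1 row per list. Filled points passed an adjusted p of 0.05; the co-repressors lie near 0, and the lists with filled points below 0 are the other dendritic cell regulators and the cytokine receptors.

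**Figure D5:**
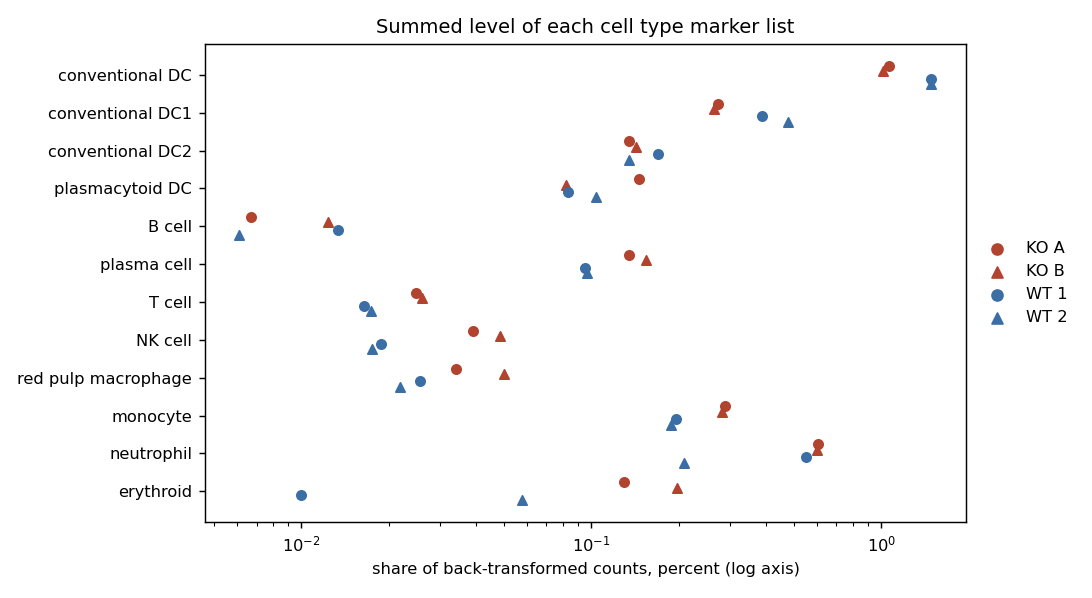
Share of back-transformed counts held by each marker list in each library, in percent on a log axis. Conventional DC markers hold 1.06% and 1.01% in the KO libraries against 1.49% in each WT library, and NK cell markers hold 0.0392% and 0.0483% in the KO libraries against 0.0188% and 0.0175% in the WT libraries.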

How the data were processed

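Total RNA from sorted splenic dendritic cells was sequenced after preparation with a stranded kit for small inputs, per the labels' protocols. The authors deposited log2 values for 17300 genes, on a variance-stabilized scale, as judged from the lowest value that all libraries share and the compression near it, and already scaled between libraries. Salmon 1.10.1, DESeq2 and GRCm39 are named in the submitters' processing notes, with no role or order. Their gene filter and annotation were not given in these sources. KO columns carry numbers other than those of the KO titles, so they were taken as the KO group and called KO A and KO B.

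Symbols came from GENCODE M21 (17289 matched). Genes whose mean exceeded the lowest value, 8.04, by 1 log2 unit or more were tested (11864) in limma 3.58.1 under R 4.3.3, with an intensity trend, two-sided, at an adjusted p of 0.05; moderation gave 6.48 degrees of freedom. The fit was tested on simulated data. Normalised counts were obtained by inverting the transform from the lowest value. Levels per kb used the exon union of protein-coding transcripts. All 10 factors were named; from each related list at most 4 genes past the threshold, by smallest p and at most 2 per direction where both occurred; and the 2 genes nearest to each factor past the threshold. Other genes given with values (Irf7, Spib, Batf, Id3, Tcf4, Zeb1, Siglech, Cd74, Ccr7, S100a9, Wdfy4, Cd3e, Ddx3y) were chosen after their values were seen. So were Itgam, Jun and Cd3d. Factors and lists were chosen with earlier results of these data known. Alternatives changed the scaling, filter, trend and scale, and left out each library.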

Additional observations from a re-analysis of the deposited data

How the results depend on the processing

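No paired analysis was possible because the KO and WT columns of the table share no replicate number. In the 5 alternatives that kept all libraries, 45 of 50 values of the 10 factors kept their direction and their side of the threshold. The 4 that no longer passed were all Ikzf1 (adjusted p between 0.0414 and 0.0579 over these alternatives), so 1 factor instead of 2 was higher with quantile normalization, without a filter, without the intensity trend and with log2 of the count plus 1. Irf4 turned to -0.03 with quantile normalization. Zbtb46, Batf3 and Nfil3 passed in all 5.

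Leaving out 1 library at a time gave 0 to 3 factors past the threshold, 0 to 1 higher and 0 to 2 lower, and the cause was not tested. A lone library was assumed to vary like the other group. The differences ranged from -0.73 to -0.63 for Zbtb46, from -0.62 to -0.40 for Batf3, from 0.97 to 1.24 for Nfil3 and from 0.32 to 0.40 for Ikzf1. They changed sign for Irf4 (-0.13 to 0.16), Irf8 (-0.35 to 0.12) and Spi1 (-0.04 to 0.12). Over all genes, 822 passed (557 higher and 265 lower), and 0 to 820 passed with 1 library left out (0 to 620 higher and 0 to 200 lower). Leaving out KO A left 0 past the threshold in limma, with 2508 genes at unadjusted p below 0.05, and leaving out KO B left 3. Quantile normalization gave 366 higher and 282 lower genes, 56.5% of calls being higher, against 67.8% as deposited. Depth in reads is unknown here, and counting error of single values was not estimated.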

Other observations

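For 3 of the 4 factors that passed, the nearest tested protein-coding genes on the chromosome did not pass. Over all tested genes 6.93% passed, so most neighbours of any gene would not pass. Neither tested protein-coding neighbour of Zbtb46 (Zgpat at 0.04 and Tpd52l2 at 0.07), of Nfil3 (Auh at 0.22 and Sptlc1 at 0.01) or of Ikzf1 (Abca13 at 0.40 and Fignl1 at 0.29) passed. Next to Batf3, which fell, lies Atf3, a stress-induced bZIP factor of the opposite strand. Atf3 was at 12.78 and 12.99 in the KO libraries, against 9.61 and 11.43 in the WT libraries, a rise by 2.37 (adjusted p = 0.0476). Beside Id2, which differed by -0.30 without passing, Rnf144a, a ubiquitin ligase gene, rose by 0.78 (adjusted p = 0.0253). These neighbours were looked up after the values of the factors were seen.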
